A study of Sus scrofa with 6 samples.

Results

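The genes described here are those of 4 small leucine-rich proteoglycans, asporin (ASPN), lumican (LUM), decorin (DCN) and biglycan (BGN), in the interstitium of the pig aortic valve under raised cyclic pressure. They were taken as every non-control probe set of the Affymetrix Porcine Genome Array that the platform annotation ties to exactly 1 of these symbols, which gave 5 probe sets out of 23999, or 4 genes out of 6765 with a symbol of their own. In the study, leaflets of adult female pigs were freed of endothelium with collagenase, kept overnight in medium with serum and then pressurised in a bioreactor at 1 Hz for 24 h. In the hypertensive group the pressure cycled between 0 and 120 mmHg, and in the normotensive group between 0 and 80 mmHg. Each group had 3 samples with 1 array per sample. Per the labels, 70 ng of RNA per sample went through repeated amplification before labelling. The replicates are called biological, but no label says that they were separate animals, and the p-values reflect only how far these samples spread, which may be technical.

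Small leucine-rich proteoglycans are secreted proteins built around a curved stack of leucine-rich repeats that binds fibrillar collagen. They set the thickness and spacing of collagen fibrils, and several of them also bind TGF-beta. Decorin and biglycan carry chondroitin or dermatan sulfate chains, and lumican carries keratan sulfate. Asporin belongs to the same class as decorin and biglycan but lacks their usual site for a sugar chain and has a run of aspartate residues near its start. Decorin, biglycan and lumican are abundant in the collagen and proteoglycan layers of valve leaflets, where interstitial cells make them.

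Values are MAS5 signals on a linear scale, each array having been scaled by the authors to a common level. Differences are on the log2 scale, hypertensive minus normotensive, with the standard error (SE) of a limma fit over 14399 probe sets that passed a filter on dim signals (mean signal of 48.5 or more), and with Benjamini-Hochberg adjustment of p over that whole set. Where a gene had several probe sets that passed, the brightest stood for it. Across these probe sets the hypertensive arrays were unequally far from the normotensive ones. Their correlation with the normotensive arrays averaged 0.817 for hypertensive replicate 1, 0.95 for replicate 2 and 0.895 for replicate 3. The normotensive arrays correlated with each other at 0.952 to 0.978. Results without single arrays are given for the members and further family genes, and not for the other genes named. For GAPDH, the 3′ over 5′ control signal is a sign of RNA integrity and of amplification. It was 3.67, 2.91 and 6.04 on hypertensive replicates 1, 2 and 3, and 3.02, 2.11 and 7.52 on normotensive replicates 1, 2 and 3. The order by replicate number was thus the same in both groups. The part of this signal in the results was not tested.

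Of the 4 genes, asporin had by far the largest difference, at 20.8% of its normotensive signal under hypertensive pressure. Lumican was at 55.1%, biglycan at 71.9% and decorin at 83.7%. All 4 means were lower under hypertensive pressure, as were those of 55.0% of the 5271 genes that passed the filter. No member passed an adjusted p of 0.05, nor did any other probe set (0% of 14399 by limma). At an unadjusted p under 0.05, 1372 probe sets were lower and 1064, or 7.39%, higher. ASPN and LUM were 2 of the 1372 lower ones, which make up 9.53% of all probe sets. In the same 2 members every hypertensive array lay below every normotensive array, which held for 12.0% of all probe sets. In whole leaflets, fewer interstitial cells and less RNA per cell cannot be told apart.

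**Figure D1:**
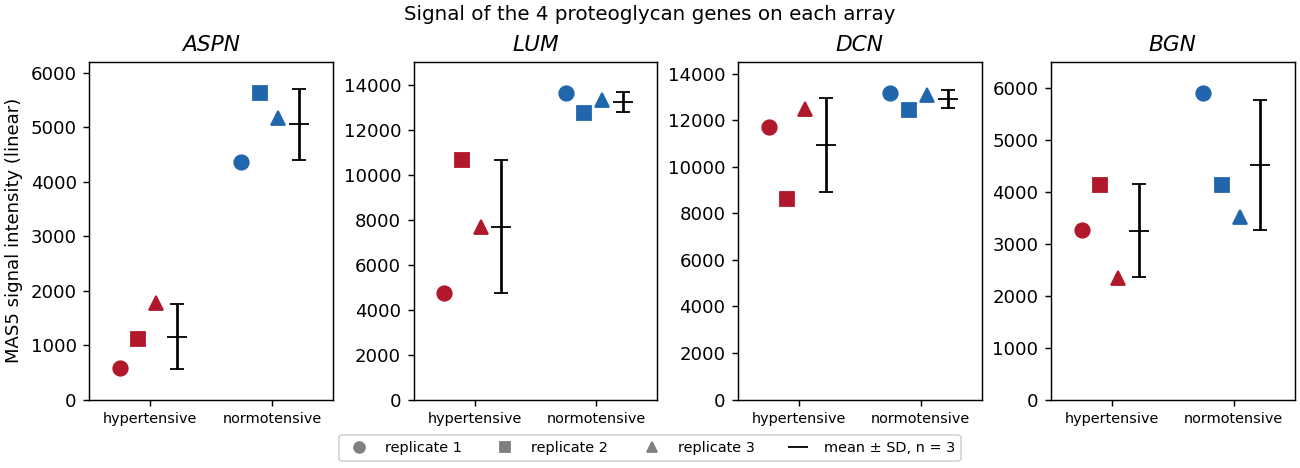
MAS5 signal (linear axis from 0) of ASPN, LUM, DCN and BGN on the 3 hypertensive arrays (red) and the 3 normotensive arrays (blue), with replicates marked by shape and the mean ± SD of each group in black. The ASPN groups are far apart and the LUM groups do not overlap, whereas the DCN groups touch and the BGN groups overlap.

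Asporin binds collagen and TGF-beta and is known from cartilage, tendon, periodontal ligament and heart valves. ASPN had signals of 576, 1120 and 1769 on hypertensive replicates 1, 2 and 3, against 4355, 5631 and 5162 on normotensive replicates 1, 2 and 3. The highest hypertensive array was thus well below the lowest normotensive array. The means were 1155 ± 597 under hypertensive and 5049 ± 645 under normotensive pressure (SD, n = 3 each). By limma the log2 difference was -2.26 (SE 0.39, adjusted p = 0.164), with a 95% interval from -3.16 to -1.36. On the linear scale the interval runs from 11.2% to 38.9% of the normotensive level. A log2 difference of -2 or lower was found in 59 of 5271 genes, or 1.12%, and ASPN was 1 of them.

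The hypertensive array nearest to the normotensive arrays as a whole did not have the highest ASPN. On hypertensive replicate 2, ASPN stood at 22.3% of its normotensive mean (geometric, here and in the following shares), and 13 of the 5271 genes, 0.247%, were as low or lower, ASPN counted. On hypertensive replicate 1, where many genes were far from their normotensive level, ASPN was at 11.5%, and 1.71% of genes were as low. On hypertensive replicate 3, ASPN was at 35.2%, and 5.46% of genes were as low. The share of genes as low as ASPN was thus smallest on the hypertensive array that lay nearest to the normotensive arrays. Such a share also depends on how far genes in general lie from their normotensive level on that array, so it does not describe ASPN alone. Without hypertensive replicate 2, ASPN passed the threshold (log2 -2.31, SE 0.43, limma adjusted p = 0.0101), as did 14.0% of all probe sets in the lower direction. The unadjusted limma p of ASPN was not smaller in that setting, at 0.000686 against 0.000378 with all arrays. It was 0.000179 without hypertensive replicate 1 and 0.000147 without hypertensive replicate 3, where ASPN did not pass after adjustment. Without hypertensive replicate 1 the log2 difference was -1.83 (adjusted p = 0.148), and without hypertensive replicate 3 it was -2.64 (adjusted p = 0.213).

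Lumican regulates collagen fibril growth and belongs to another class of the family than asporin does. LUM had signals of 4740, 10659 and 7658 on hypertensive replicates 1, 2 and 3, against 13643, 12735 and 13301 on normotensive replicates 1, 2 and 3. The groups did not overlap, although hypertensive replicate 2 came close to the normotensive range. The means were 7685 ± 2960 under hypertensive and 13226 ± 459 under normotensive pressure (SD, n = 3 each). The log2 difference was -0.86 (SE 0.27, limma adjusted p = 0.257), with a 95% interval from -1.49 to -0.23. In single arrays LUM was at 35.8%, 80.6% and 57.9% of its normotensive mean on hypertensive replicates 1, 2 and 3. These values were less extreme than those of ASPN, since 11.7%, 21.4% and 19.4% of genes were as low on the same arrays. Without hypertensive replicate 2, LUM passed (log2 -1.13, SE 0.21, limma adjusted p = 0.0104), as did 14.0% of all probe sets in the lower direction. Without hypertensive replicate 1 the log2 difference was -0.55 (adjusted p = 0.449).

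LUM also differed in how far the arrays of a group spread. The SD of its log2 signal was 0.59 over the hypertensive arrays and 0.05 over the normotensive arrays. Such an imbalance was common on these arrays, with a median SD over genes of 0.47 in the hypertensive and 0.22 in the normotensive group and a larger hypertensive SD in 78.6% of genes. The ratio of the SDs of LUM, 11.7, was reached by 4.02% of genes. DCN had a ratio of 6.44 (SDs of 0.29 and 0.04), ASPN of 4.32 (0.81 and 0.19) and BGN of 1.07 (0.41 and 0.38), in each case hypertensive before normotensive. Ratios as large were found in 12.5% of genes for DCN, 22.4% for ASPN and 76.4% for BGN. The fit uses 1 variance for both groups.

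Decorin, the best known member of the family, binds collagen and TGF-beta and holds receptor tyrosine kinases in check in human and mouse cells. DCN had signals of 11723, 8625 and 12476 on hypertensive replicates 1, 2 and 3, against 13187, 12466 and 13099 on normotensive replicates 1, 2 and 3. Hypertensive replicates 1 and 3 were close to the normotensive arrays, and replicate 2 was the low one. The means were 10941 ± 2041 under hypertensive and 12917 ± 393 under normotensive pressure (SD, n = 3 each). The log2 difference was -0.26 (SE 0.17, limma adjusted p = 0.439). Its 95% interval, -0.66 to 0.14, corresponds to 63.4% to 110.4% of the normotensive level, so a difference of the size measured for ASPN lies outside it. Without hypertensive replicate 2 the log2 difference was -0.09 (adjusted p = 0.622). The signals lay below the brightest ones on the same arrays, which ran from 24516 to 34208. Those belong to other probe sets, and whether the DCN probe set was near its own upper limit was not tested. A further DCN probe set had signals of 0.76 to 8.07 on the hypertensive arrays and of 0.18 to 4.91 on the normotensive arrays, all far below the filter level, and it entered no test.

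Biglycan is close to decorin in sequence, takes part in fibril assembly and, released from the matrix, binds Toll-like receptors of mouse macrophages. BGN had signals of 3278, 4145 and 2349 on hypertensive replicates 1, 2 and 3, against 5918, 4134 and 3514 on normotensive replicates 1, 2 and 3. Hypertensive replicate 2 lay just above normotensive replicate 2 and above normotensive replicate 3, so the groups overlapped. The means were 3257 ± 898 under hypertensive and 4522 ± 1248 under normotensive pressure (SD, n = 3 each). The log2 difference was -0.48 (SE 0.29, limma adjusted p = 0.398), with a 95% interval from -1.14 to 0.19 that spans 45.3% to 114% of the normotensive level. Without normotensive replicate 1, the highest of its group, the log2 difference was -0.27 (adjusted p = 0.771). With arrays weighted by their spread it was -1.08 (adjusted p = 0.00556). The weights were 0.289, 0.195 and 2.38 on hypertensive replicates 1, 2 and 3, and 6.96, 0.931 and 1.15 on normotensive replicates 1, 2 and 3. This value thus leaned on hypertensive replicate 3, where BGN was lowest, and on normotensive replicate 1, where it was highest. In that weighted fit ASPN and LUM passed too (adjusted p = 0.00128 and adjusted p = 0.00144), along with 22.3% of all probe sets in the lower direction.

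The 4 genes did not share an order of arrays. ASPN was lowest on hypertensive replicate 1 and highest on hypertensive replicate 3. LUM was also lowest on replicate 1 but highest on replicate 2. DCN was lowest on replicate 2, and BGN on replicate 3. LUM and DCN are next to each other on the pig reference assembly (Sscrofa11.1), with KERA and EPYC, further members of the family, on the far side of LUM. The log2 ratio of LUM to DCN signal, which can be compared between arrays but says nothing of which gene had more transcript, was -1.31, 0.31 and -0.70 on hypertensive replicates 1, 2 and 3. On the normotensive arrays it lay between 0.02 and 0.05, with an SD of 0.01, so LUM was low relative to DCN on replicates 1 and 3 and high on replicate 2. ASPN lies among OGN, OMD and ECM2 on that assembly, and BGN has no family member within 3 genes on either side. None of OGN, OMD, ECM2, KERA or EPYC had a probe set with that symbol alone, and they were not analysed here.

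To set the changes of the members against each other, the log2 ratio of 2 members was taken on each array, and the hypertensive and normotensive ratios were compared for all 6 pairs by an exact 2-sided permutation test, which cannot give a p below 0.1 with 3 arrays against 3. The log2 difference of ASPN minus that of DCN was -2.01 (exact permutation p = 0.1, adjusted over 6 pairs p = 0.3). The log2 ratio of ASPN to DCN was -4.35, -2.95 and -2.82 on hypertensive replicates 1, 2 and 3, against -1.60, -1.15 and -1.34 on normotensive replicates 1, 2 and 3. Every hypertensive ratio was below every normotensive one. The ratio of ASPN to LUM did so as well, with a difference of -1.40 (exact permutation p = 0.1, adjusted p = 0.3). That of ASPN to BGN differed by -1.79 (exact permutation p = 0.2, adjusted p = 0.4), and its groups overlapped, because hypertensive replicate 3 at -0.41 lay above normotensive replicate 1 at -0.44. The 3 pairs among LUM, DCN and BGN differed by -0.60, -0.38 and 0.22 (LUM to DCN, LUM to BGN and DCN to BGN), with exact permutation p between 0.4 and 0.8, and their groups overlapped. These 3 differences were smaller than the SDs of the ratios over the hypertensive arrays, which were 0.81, 0.60 and 0.68.

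**Figure D2:**
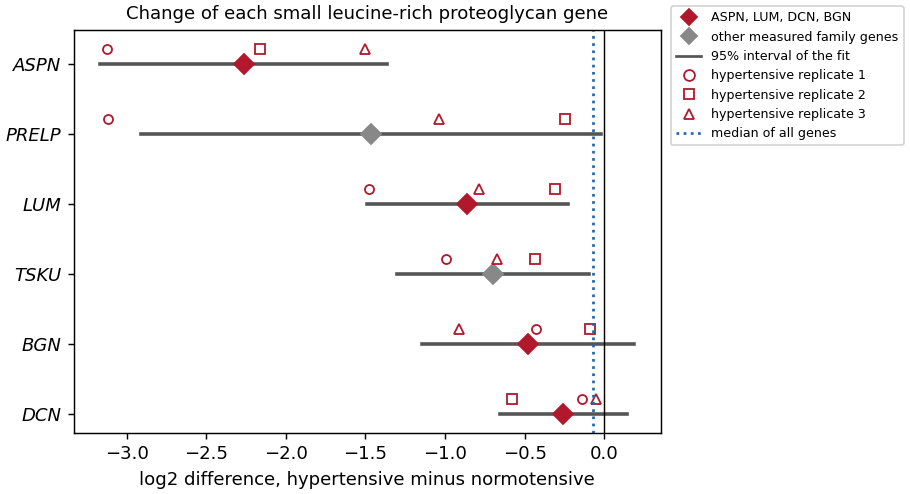
Log2 difference, hypertensive minus normotensive, of each measured small leucine-rich proteoglycan gene: diamonds are the fit's estimates with their 95% intervals, and open symbols above each line are the single hypertensive arrays against the normotensive mean. ASPN has the lowest estimate, at -2.26, and the intervals of BGN and DCN include 0, while the dotted line marks the median of all genes at -0.07.

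Of the 18 genes listed for the whole family, 7 had a probe set with a symbol of their own and 6 passed the filter. Beside the 4 members these were PRELP, a heparin-binding member of the lumican class, and TSKU, a secreted member that binds BMP proteins in frog and chick embryos. All 6 had lower means under hypertensive pressure, none passed, and the median log2 difference was -0.78, against -0.07 for all 5271 genes. In 4 of the 6 the hypertensive arrays all lay below the normotensive arrays, against 12.6% of all genes. ASPN and LUM are among these 4, and members and list were chosen with earlier results of these data known. The count and the median are therefore a description and no test of the family. OPTC, the gene of opticin, was below the filter level on average.

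PRELP had signals of 618, 4523 and 2613 on hypertensive replicates 1, 2 and 3, against 5594, 5871 and 4683 on normotensive replicates 1, 2 and 3. Its order of hypertensive arrays was that of LUM, and its value on replicate 1, 11.5% of the normotensive mean, was close to that of ASPN. On replicate 2, however, PRELP was at 84.4% where ASPN was at 22.3%. The log2 difference of PRELP was -1.47 (SE 0.63, limma adjusted p = 0.292), -0.64 without hypertensive replicate 1 and -2.08 without replicate 2, where it passed (adjusted p = 0.0269). TSKU had signals of 1051, 1553 and 1317 on the hypertensive arrays, against 2076, 2491 and 1783 on the normotensive arrays. Its log2 difference was -0.70 (SE 0.26, limma adjusted p = 0.273), and it passed without hypertensive replicate 2 (adjusted p = 0.041). PRELP and TSKU were then among the 14.0% of all probe sets that passed in the lower direction without that array. A dimmer TSKU probe set had a log2 difference of -0.13, with overlapping groups.

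**Figure D3:**
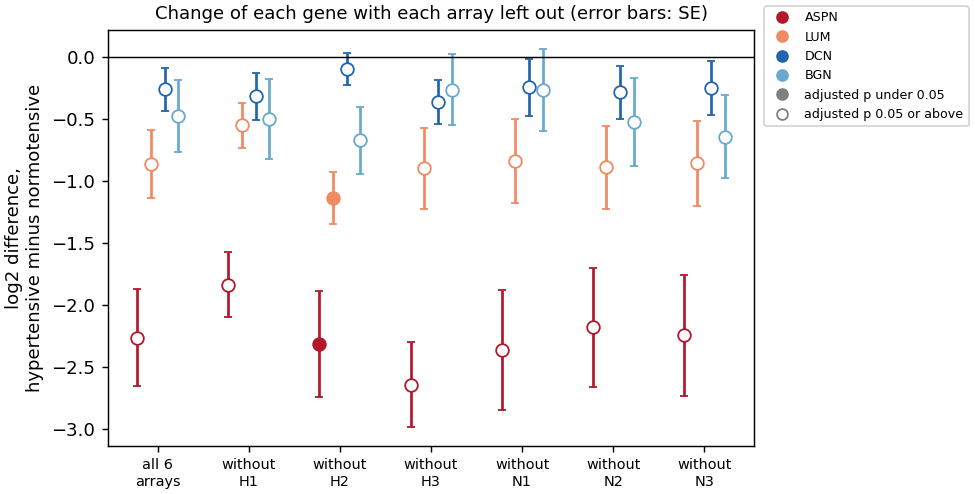
Log2 difference, hypertensive minus normotensive, of ASPN, LUM, DCN and BGN with all 6 arrays and with each array left out in turn (H hypertensive, N normotensive, number the replicate), error bars being the SE of the fit and filled points an adjusted p under 0.05. ASPN stays between -2.64 and -1.83, and filled points occur for ASPN and LUM without hypertensive replicate 2. In that setting 14.0% of all probe sets passed in the lower direction.

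The leaflet markers show what tissue these signals came from. Of 11 markers of interstitial cells and fibroblasts other than the members, 9 were on the array with a symbol of their own and 8 passed the filter, and S100A4 did not. Their summed signal was 38775 to 51086 on the hypertensive arrays and 52652 to 57860 on the normotensive arrays. The sum was therefore lower on every hypertensive array, as LUM and ASPN were. Vimentin (VIM), the intermediate filament of mesenchymal cells, was at 20203, 26412 and 18606 on the hypertensive arrays and at 24275, 22536 and 23983 on the normotensive ones. Its log2 difference of -0.13 (limma adjusted p = 0.64) was the smallest of the 10 measured markers of this list, LUM and DCN counted. Of these 10, 9 had lower means and 1 a higher one, against lower means in 55.0% of all genes. Their median log2 difference was -0.30, and none passed the threshold. The summed signal of 8 smooth muscle and myofibroblast markers, of which 6 passed the filter and CNN1 and MYLK did not, was 6440 to 11979 on the hypertensive and 14540 to 19763 on the normotensive arrays. This sum too moved with ASPN and LUM. All 6 measured genes of that list had lower means, with a median log2 difference of -1.07, and none passed the threshold. The part of these cells in the result was not tested.

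The summed markers of other cells overlapped between the groups. The sum of 13 endothelial markers was 2149 to 4458 on the hypertensive and 2548 to 3142 on the normotensive arrays, and CDH5, CLDN5, FLT1, KDR, SELE, TIE1 and VWF were below the filter level. Of the 6 that passed the filter, 1 was higher and 5 lower, and none passed the threshold. SELP was at log2 2.76 with all hypertensive arrays above, as were 9.28% of all genes. ERG was at -0.64 with all below, as were 12.6%. ENG, TEK, PECAM1 and ESAM had lower means and overlapping groups. The sum of 11 macrophage and leukocyte markers was 1694 to 4907 on the hypertensive and 3343 to 6037 on the normotensive arrays, with ITGAM and CD3E below the filter level. The sum of 6 cartilage markers was 2261 to 4676 and 2530 to 4541 in the same order, with COL11A1 below that level. All 7 muscle and all 3 adipocyte markers on the array were below it, as was ALAS2 of the 2 blood markers.

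Other proteoglycans lay on both sides. Of 7 measured genes of other matrix proteoglycans, 3 were higher and 4 lower, none passed, and the median log2 difference was -0.02. Versican (VCAN), the large chondroitin sulfate proteoglycan of the valve's middle layer, had signals of 11870, 10729 and 6541 on the hypertensive arrays, against 5361, 6758 and 5973 on the normotensive arrays. Its mean was on the other side from those of the members (log2 0.65, SE 0.25, limma adjusted p = 0.276), the groups overlapped, and 1 of its 3 probe sets had the opposite sign. SDC1, a cell surface proteoglycan, was at -0.52 with hypertensive arrays all below the normotensive ones, and a further SDC1 probe set had the opposite sign. HAPLN1, which links aggrecan or versican to hyaluronan, was at -0.49 and the cell surface proteoglycan SDC2 at 0.21.

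The enzymes that build and sulfate the sugar chains were mixed, with 8 of 14 measured genes higher and 6 lower, none past the threshold and a median log2 difference of 0.13. DSE, the epimerase that turns chondroitin into dermatan sulfate, as carried by decorin and biglycan, had signals of 12672, 8930 and 10775 on the hypertensive arrays, against 5404, 5510 and 6695 on the normotensive arrays. All hypertensive arrays were above, which held for 9.28% of genes (log2 0.87, SE 0.19, limma adjusted p = 0.221). PAPSS2, which makes the sulfate donor, had signals of 321, 481 and 650, against 1020, 901 and 962, so that all hypertensive arrays were below (log2 -1.05, SE 0.32, limma adjusted p = 0.257). The related PAPSS1 was at -0.32, also with all hypertensive arrays below, and the dermatan sulfotransferase CHST14 at -0.55 with overlapping groups.

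The collagens to which the family binds had a median log2 difference of -0.16, with 5 of 7 measured genes lower and none past the threshold. COL5A1, a collagen of the fibril core, had signals of 959, 2410 and 1251 on the hypertensive arrays, against 3076, 3379 and 3571 on the normotensive arrays. The groups did not overlap (log2 -1.23, SE 0.35, limma adjusted p = 0.238). COL3A1 had signals of 527, 4309 and 1789, against 2989, 3420 and 3337, so its lower mean (log2 -1.02, SE 0.65, limma adjusted p = 0.413) came from replicates 1 and 3 while replicate 2 was above all normotensive arrays. COL6A3 and the cartilage collagen COL2A1 were at 0.11 and 0.24. Among 9 genes of collagen processing and cross-linking, 4 were higher and 5 lower, with a median of -0.06. BMP1, whose values stand with the proteases below, had the smallest p of this list and a log2 difference of 1.41, with all hypertensive arrays above. P4HA2 and PLOD1, which hydroxylate collagen, were at -1.63 and -1.08, and lysyl oxidase (LOX) was at -0.49, all with overlapping groups.

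Genes of the TGF-beta axis were evenly divided, with 6 of 12 measured genes higher and 6 lower and a median log2 difference of -0.0012. TGFB3 and TGIF1 were at 0.52 and 0.53, SMAD4 at 0.39 and BAMBI at -0.43, and further probe sets of TGFB3 and BAMBI had the opposite sign. Of 10 receptors reported to bind decorin, biglycan or lumican that passed the filter, 7 were higher and 3 lower, and none passed the threshold. Higher means were found in 2372 of all 5271 genes. FAS and CD14, both among the 7 higher receptors, had normotensive means of 39.6 and 40.7, under the filter level, and passed the filter only through the hypertensive arrays. TLR2, a receptor of microbial lipoproteins that biglycan also binds in mouse, had signals of 5048, 3126 and 1975 on the hypertensive arrays, against 1586, 1473 and 1647 on the normotensive arrays. The groups did not overlap (log2 1.01, SE 0.34, limma adjusted p = 0.267). FAS, the death receptor, was at 1.29 and CD14 at 0.86, both near the filter level, and the purinergic receptor P2RX4 at -0.79.

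Of 10 proteases reported to cleave the family that passed the filter, 8, MMP3 among them, had higher means and 2 lower ones, and none passed the threshold. Over all genes, 2372 of 5271 had higher means. MMP3, which cleaves decorin, had signals of 14136, 797 and 3135 on the hypertensive arrays, against 46.9, 27.2 and 23.1 on the normotensive arrays, which were all below the filter level; it passed the filter only through the hypertensive arrays, and its values are a description. The collagenase MMP1 was at a log2 difference of 2.79 and ADAMTS1, which cleaves versican and aggrecan, at 2.22. BMP1, which removes the propeptide of biglycan, had signals of 1371, 712 and 453 on the hypertensive arrays, against 378, 364 and 170 on the normotensive arrays (log2 1.41, SE 0.48, limma adjusted p = 0.268). These transcript levels do not measure cleavage.

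**Figure D4:**
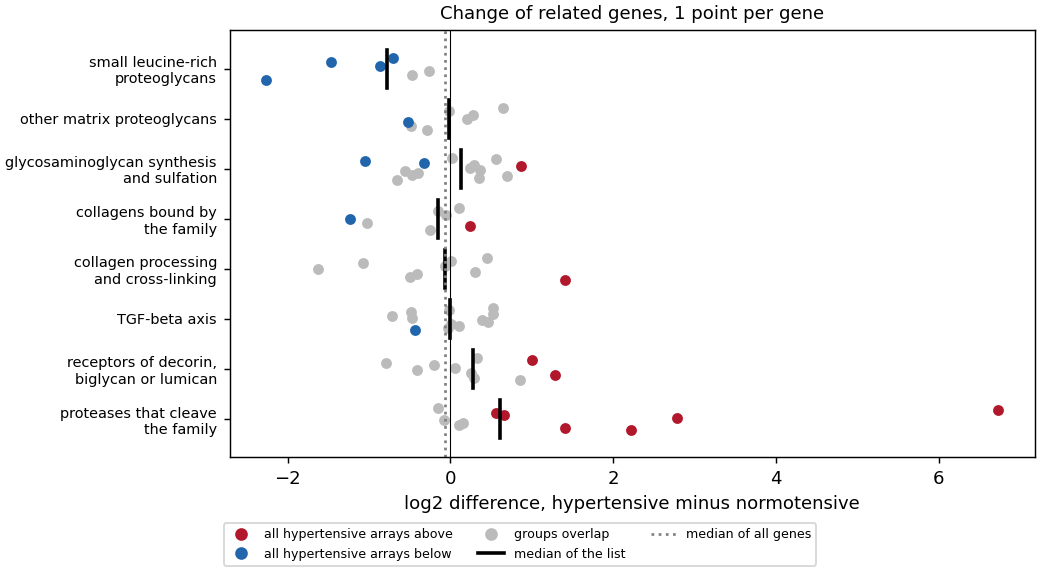
Log2 difference, hypertensive minus normotensive, of each measured gene in 8 lists related to the small leucine-rich proteoglycans, 1 point per gene, coloured by whether all hypertensive arrays lay above (red) or below (blue) all normotensive arrays. The black bar of the proteoglycan family stands at -0.78, and MMP3 (the point farthest right), FAS and CD14 passed the filter only through the hypertensive arrays.

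The genes most like each member were sought among 5270 others by the root mean square difference of log2 signals over the 6 arrays, each gene centred on its own mean, as a description with no test. Those nearest to ASPN were RAB27B, a GTPase of secretory vesicles, at 0.15, and the cell cycle genes CCNB1 (cyclin B) and TOP2A (a topoisomerase), at 0.18 and 0.19. All 3 had hypertensive replicate 1 lowest and replicate 3 highest among the hypertensive arrays, as ASPN did. Those nearest to LUM were TCTN3, of the primary cilium, the spindle checkpoint gene ZWILCH and malic enzyme ME1, at 0.06 to 0.07. DCN was nearest to HAUS1, METAP2 and WASHC4, at 0.07 to 0.08, and BGN to ATP13A1, INF2 and CCL14, at 0.10 to 0.12.

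None of the members was among the genes nearest to another. The member nearest to ASPN in this measure was LUM, at place 297 and a difference of 0.80, while DCN and BGN were at places 1801 and 1859. From LUM, BGN was at place 1407 and DCN at place 2210, and from DCN, BGN was at place 2575. PRELP was nearer to ASPN, at place 162, than any of the other 3 members. TSKU was nearer than any other member to LUM, DCN and BGN, at places 310, 2106 and 830. The measure also counts the size of a change. PRELP, with the order of hypertensive arrays of LUM, was at place 2616 from LUM.

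**Figure D5:**
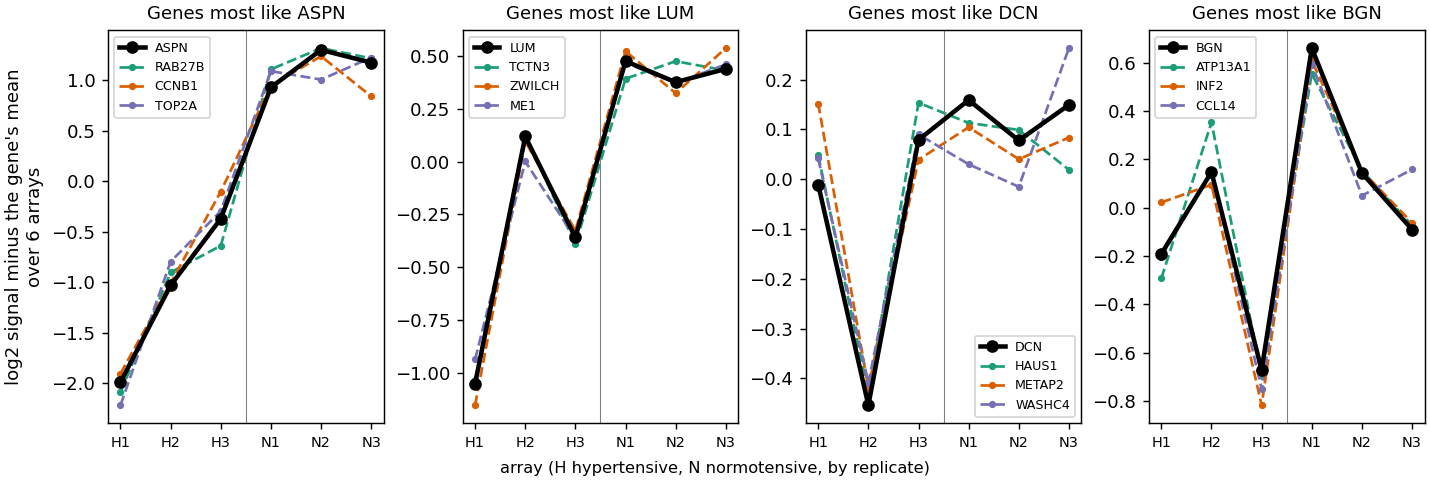
Log2 signal of ASPN, LUM, DCN and BGN (black) and of the 3 genes most like each of them (dashed), centred on each gene's mean over the 6 arrays, with hypertensive arrays (H1 to H3) left of normotensive arrays (N1 to N3). The 4 members have 4 different profiles. ASPN and LUM are both lowest on H1, but among the hypertensive arrays ASPN is highest on H3 and LUM on H2. DCN is lowest on H2 and BGN on H3.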

How the data were processed

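The deposited table gives a signal intensity on a linear scale for each probe set on each array. The authors used GCOS and MAS5, per the submitters' processing notes, in versions not known here. Trimmed by 2%, the mean intensity was 500.11 to 500.131 on every array, so scaling hides a difference in total RNA. No detection calls were used. With 3 arrays a group, the number of arrays limits precision. Of 24123 probe sets, 124 controls were left out, and symbols came from the platform annotation.

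Intensities were taken to log2 without a pseudocount, probe sets at or above the 40th percentile of the mean were kept, and the hypertensive group was set against the normotensive one in limma 3.58.1 (R 4.3.3; eBayes with an intensity trend, 2-sided, threshold 0.05). The fit was tested on simulated data with known changes. The simulation gave both groups the same spread, unlike these arrays, so it does not show how the fit behaves with unequal spread.

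Named genes were all members, the measured family, up to 4 genes of smallest p per list, 3 of closest profile per member, and VIM as a marker. Members and lists were chosen with earlier results of these data known. Alternatives were the replicate block, normalizations, filters, pseudocounts, variance models and each array left out. No label says that shared replicate numbers pair the samples, so they were not taken as pairs. Deviations of same-numbered arrays correlated at 0.0593, 0.072 and 0.226, each above every value for unlike numbers (-0.137 to 0.041). Whether the numbers mark a pairing or a batch is not known. No sequences were used.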

Additional observations from a re-analysis of the deposited data

How the results depend on the processing

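The log2 differences of ASPN, LUM, DCN and BGN were below 0 under the 11 alternatives that can move them, while 5 others (the replicate block, both filters, no intensity trend and the mean of probe sets) leave them as they are by construction. They ran from -2.64 to -1.58 for ASPN, from -1.13 to -0.55 for LUM, from -0.37 to -0.09 for DCN and from -1.08 to -0.26 for BGN. Without an array in turn, the range was -2.64 to -1.83 for ASPN, -1.13 to -0.55 for LUM, -0.36 to -0.09 for DCN and -0.67 to -0.26 for BGN. The number of probe sets past the threshold, 0 with all arrays, was 0 to 3505 without an array in turn, with 3505 reached without hypertensive replicate 2 and 1 without normotensive replicate 2. With array weights, which gave hypertensive replicate 2 the smallest weight (0.195) and normotensive replicate 1 the largest (6.96), 5639 passed, among them ASPN (-1.58), LUM (-0.86) and BGN (-1.08); the cause was not tested. Quantile normalization and a median shift left every member below 0 (DCN at -0.37 and -0.18). Without an array in turn, the differences between members ran from -1.75 to -1.18 for ASPN to LUM, from -2.28 to -1.52 for ASPN to DCN, from -2.38 to -1.33 for ASPN to BGN, from -1.04 to -0.23 for LUM to DCN and from -0.64 to -0.05 for LUM to BGN. That of DCN to BGN ran from -0.10 to 0.58, its sign turning without hypertensive replicate 3. With the replicate block 0 probe sets passed, and ASPN had a limma adjusted p of 0.117; every array correlated best with its own number in the other group, a hint from the data and not from the design. The block changed no call.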
